A study of Mus musculus with 12 samples.

Results

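Gfap, Vim, Nes, Synm and Krt28 encode proteins of the intermediate filament family, and their RNA was compared across 12 libraries from the brains of aged mice. They are 5 of the 41388 genes counted in each library. Gfap, Vim, Nes and Synm were taken as the filament genes of glia. Krt28, a keratin, was chosen by its measured difference between KO and WT astrocytes in these same libraries, and the Gfap values of that comparison were also known. What that comparison shows for the 5 genes is therefore a description, given with no p-value.

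The libraries came from 8 mice on a C57BL/6 background that carried loxP-flanked alleles of Bmal1 (Arntl), a transcription factor of the circadian clock. KO mice were Cre+ and WT mice Cre- for ALDH1L1-CreERT2, a tamoxifen-dependent Cre recombinase driven by the promoter of the astrocyte gene Aldh1l1, so the controls carried the floxed alleles without Cre. Tamoxifen went to all mice of both labels at the age of 2 months (5 daily gavages of 2 mg), and the brains were taken at 20 months. After collagenase digestion, cells that bound beads against the surface antigen ACSA-2 are called astrocytes here, and the unbound cells flowthrough. The groups were KO astrocytes (mice 132, 60, 62 and 73), WT astrocytes (mice 56, 57, 64 and 78), KO flowthrough (mice 132 and 60) and WT flowthrough (mice 56 and 64). Every flowthrough library thus shares its mouse with an astrocyte library. Each library is named below by its label and mouse number.

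Total counts per library were 38691406 to 51551942. Arntl did not show lower counts under the KO label, with 401 to 645 raw counts in KO astrocytes against 239 to 374 in WT astrocytes. The count sums all exons, and which of them are floxed is not given in the labels, so KO and WT below mean the libraries labelled so. The summed level of 15 astrocyte markers was 12390 to 24560 CPM in KO astrocytes and 18860 to 24550 CPM in WT astrocytes, with KO 73 lowest, and no marker was at 0 in any library. Flowthrough still held 3770 to 9339 CPM of them. Summed microglia markers were 634.4 to 2987 CPM in KO astrocytes and 615.9 to 1252 CPM in WT astrocytes, summed oligodendrocyte markers 24350 to 38430 and 20330 to 26630 CPM, and summed choroid plexus markers 1833 to 9430 and 2015 to 5902 CPM, with none of these markers at 0. Gene by gene, 10 of 10 microglia markers (median log2 fold change 0.552), 10 of 10 oligodendrocyte markers (0.775) and 9 of 9 choroid plexus markers (0.34) were above WT in KO astrocytes, with 0 called. In KO flowthrough 10 of 10 neuron markers (0.922) and 10 of 10 endothelial markers (0.58) were above WT, and 10 of 10 ependymal (-0.924), 8 of 9 choroid plexus (-0.659) and 6 of 6 blood markers (-2.302) below it, again with 0 called. KO 73 and WT 78 were the astrocyte libraries with Xist, the transcript of the inactive X chromosome (2411 and 1133 counts); the other 10 libraries had 0 to 10.

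Intermediate filaments are rope-like polymers of the cytoskeleton. In mature astrocytes they are built from glial fibrillary acidic protein (Gfap) together with vimentin, while nestin and synemin are long partners that join filaments made by other subunits; nestin is best known from neural progenitors. Reactive astrocytes, the state seen in injured and aged brain, are known for more Gfap and often more vimentin and nestin. Keratins form a separate branch of the family in which a type I and a type II chain must pair, and keratin 28 is a type I chain described in the inner root sheath of the hair follicle.

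The genes lie on 4 chromosomes of the mouse build GRCm38, in the coordinates of the deposited files. Gfap (ENSMUSG00000020932) spans bases 102887336 to 102900912 of chromosome 11 on the minus strand, with 11 exon intervals and 4218 exonic bases. Vim (ENSMUSG00000026728) spans 13573927 to 13582826 of chromosome 2 on the plus strand, with 2335 exonic bases. Nes (ENSMUSG00000004891) spans 87971078 to 87980451 of chromosome 3 on the plus strand, with 6416 exonic bases. Synm (ENSMUSG00000030554) spans 67730161 to 67759742 of chromosome 7 on the minus strand, with 7866 exonic bases. Krt28 (ENSMUSG00000055937) spans 99364872 to 99374903 of chromosome 11 on the minus strand, with 1624 exonic bases. Of the 5, only Gfap overlaps another annotated gene, Gm26668 on the opposite strand, which had 1 to 30 counts per library against 6538 to 140553 for Gfap.

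BMAL1 pairs with CLOCK on E-boxes, and STAT3 is a known activator of Gfap, so the promoter windows of the 5 genes were searched on both strands for the E-box CACGTG, the STAT-type site TTCNNNGAA and the TATA box TATAAA. The windows run from 250 bases before to 50 bases after the start site in RefSeq on GRCm38.p6, and all 5 genes had one. The windows of Gfap and Krt28 are shown because their values differed most between KO and WT astrocytes among the 5, and that of Synm because it held the only CACGTG among the 5. They lie on the minus strand at chr11:102897151-102897450, chr11:99374854-99375153 and chr7:67759693-67759992 and are printed 5′ to 3′ in the direction of transcription, with the matches in capitals.
Gfap: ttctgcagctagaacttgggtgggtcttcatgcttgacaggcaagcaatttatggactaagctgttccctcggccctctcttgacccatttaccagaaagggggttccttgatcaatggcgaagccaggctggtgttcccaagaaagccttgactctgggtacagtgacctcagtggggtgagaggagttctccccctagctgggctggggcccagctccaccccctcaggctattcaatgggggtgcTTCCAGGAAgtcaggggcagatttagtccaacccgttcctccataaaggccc
Krt28: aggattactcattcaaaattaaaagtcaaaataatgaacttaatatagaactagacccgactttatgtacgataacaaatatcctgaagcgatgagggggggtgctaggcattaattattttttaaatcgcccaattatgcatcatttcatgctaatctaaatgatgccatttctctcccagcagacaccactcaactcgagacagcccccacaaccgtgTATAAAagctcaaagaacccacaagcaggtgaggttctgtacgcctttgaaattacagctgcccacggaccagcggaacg
Synm: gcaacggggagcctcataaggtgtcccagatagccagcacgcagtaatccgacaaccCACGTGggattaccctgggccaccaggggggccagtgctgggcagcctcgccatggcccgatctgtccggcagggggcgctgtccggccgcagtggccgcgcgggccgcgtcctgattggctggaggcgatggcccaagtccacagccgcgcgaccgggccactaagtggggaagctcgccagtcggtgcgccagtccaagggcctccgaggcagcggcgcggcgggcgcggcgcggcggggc
In the Gfap window the STAT-type site begins at position -2 from the start site, in that of Krt28 the TATA box at -30, and in that of Synm the E-box at -193. The start site of the Gfap window lies inside the counted gene span, whose upstream end is base 102900912. Those of Krt28 and Synm lie at the upstream end of their spans. Vim has a TATA box at -32, and the Nes window held none of the 3 motifs. Of 32851 mouse promoter windows of the same length, 7.15% hold CACGTG, 8.3% TTCNNNGAA and 13.6% TATAAA. A match describes the letters and was not tested as a binding site.

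Gfap was the most abundant of the 5 genes in every astrocyte library. Per kilobase of exon, it made up 73.4% to 92.2% of their summed level in KO astrocytes and 64.1% to 85.4% in WT astrocytes. Vim came next, at 46.66 to 83.4 CPM per kilobase in the 8 astrocyte libraries against 154.7 to 789.4 for Gfap. Synm followed at 1.971 to 3.613 and Nes at 0.2833 to 1.126 CPM per kilobase. Krt28 lay between 1.417 and 4.202 CPM per kilobase in KO astrocytes, within or above the range of Synm in 3 of the 4 libraries, and between 0.2192 and 0.5054 in WT astrocytes, within the range of Nes or below it. The levels of Gfap and Vim do not overlap with each other or with those of the other 3 genes in the astrocyte libraries.

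Gfap was about 2-fold higher on average in KO than in WT astrocytes, with overlapping groups. On the TMM-scaled CPM scale (counts relative to the scaled library total, used throughout), mice 132, 60, 62 and 73 of the KO label had 1634, 3330, 2374 and 1041 CPM. Mice 56, 57, 64 and 78 of the WT label had 880.6, 1197, 652.6 and 1394 CPM. KO 132, 60 and 62 lay above every WT library, and KO 73 lay below WT 57 and WT 78. The means were 2095 ± 988 and 1031 ± 329 CPM (SD, n = 4 each), and the fitted log2 fold change was 1.03 ± 0.36 (SE; 95% interval 0.23 to 1.84). The Gfap values of this comparison were known beforehand, so this interval is a description and not a test. Leaving out KO 73 and WT 78 together, or any single library, kept the direction, while a covariate for non-astrocyte RNA raised the estimate to 1.64. Gene by gene, microglia, oligodendrocyte and choroid plexus markers also lay above WT in KO astrocytes. By library, KO 73 had the highest summed microglia and choroid plexus markers of all astrocyte libraries (2987 and 9430 CPM). Its oligodendrocyte sum (24350 CPM) was the lowest of the KO astrocytes, as were its Gfap and Krt28. The part of these markers in the differences of Gfap and Krt28 was not tested. Since these are bulk libraries, fewer cells of a type and less RNA per cell cannot be told apart.

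In flowthrough, Gfap was higher in KO as well, and this rested largely on KO 60. KO 132 and 60 had 336.9 and 1385 CPM, while WT 56 and 64 had 257.4 and 129.4 CPM. Both KO libraries lay above both WT libraries, KO 132 by a narrow margin. The log2 fold change was 2.15 ± 0.68 (95% interval 0.67 to 3.64), which did not pass edgeR's quasi-likelihood test after Benjamini-Hochberg adjustment (adjusted p = 1, unadjusted p = 0.0084). Without KO 60 in flowthrough it was 0.80. These mice also gave astrocyte libraries whose Gfap values were already known, so the p-value above is not independent of them. The summed astrocyte markers were also highest in KO 60 among the flowthrough libraries, at 9339 CPM against 3770 to 5367 CPM in the other 3. The neuron and endothelial markers also lay above WT in KO flowthrough, and their part in this value was not tested.

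Vim, the partner of Gfap in astrocyte filaments, did not follow it. KO astrocytes 132, 60, 62 and 73 had 155.7, 141.1, 108.9 and 194.7 CPM, while WT astrocytes 56, 57, 64 and 78 had 185.2, 169.5, 192.7 and 123.9 CPM. The groups overlapped across most of their range, and KO 62, which was second highest for Gfap, was lowest for Vim. The means were 150 ± 36 and 168 ± 31 CPM (SD, n = 4 per label), for a fitted log2 fold change of -0.15 ± 0.20 (95% interval -0.60 to 0.29). Among the astrocyte libraries, summed choroid plexus markers were highest in KO 73 (9430 CPM) and lowest in KO 62 (1833 CPM), as Vim was. Ependymal sums were also highest in KO 73 (1081 CPM) but lowest in WT 78 (78.17 CPM). The part of these markers in the astrocyte values of Vim was not tested. In flowthrough Vim was 174.2 and 176.3 CPM in KO and 216.6 and 236.6 CPM in WT. These groups did not overlap, with WT higher, and the log2 fold change of -0.37 ± 0.26 did not pass in edgeR (adjusted p = 1; 95% interval -0.94 to 0.20). Ependymal markers were 394.7 to 637.9 CPM in KO and 899.3 to 1029 CPM in WT flowthrough in sum, choroid plexus markers 19540 to 23550 and 34200 to 40340 CPM, and blood markers 1986 to 2130 and 6385 to 14030 CPM. These sums were thus lower in KO as well, and their part in the Vim values was not tested.

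Nes and Synm, which encode the long partners nestin and synemin, overlapped between the labels in astrocytes. For Nes, KO 132, 60, 62 and 73 had 4.08, 3.34, 2.748 and 7.223 CPM, and WT 56, 57, 64 and 78 had 3.49, 1.817, 5.808 and 2.188 CPM. The highest value was that of KO 73, and WT 64 came next. The log2 fold change was 0.39 ± 0.42 (95% interval -0.55 to 1.34), and it turned to -0.13 without KO 73 and WT 78. Synm was 17.9, 21.2, 21.39 and 28.42 CPM in the KO libraries and 15.51, 23.22, 23.05 and 20.52 CPM in the WT libraries, in the same order of mice. KO 73 was again highest, and the log2 fold change of 0.12 ± 0.18 (95% interval -0.29 to 0.53) became -0.02 without it. In flowthrough Nes was 11.16 and 10.27 CPM in KO against 7.203 and 9.339 CPM in WT, and Synm 19.14 and 24.59 CPM against 19.26 and 21.64 CPM. The Nes groups stood apart, with KO higher, and the Synm groups overlapped. Neither passed in edgeR (log2 fold change 0.37 ± 0.53 for Nes and 0.10 ± 0.25 for Synm, adjusted p = 1 for both). Summed endothelial markers in flowthrough were 1811 and 1510 CPM in KO 132 and 60, against 888.8 and 1348 CPM in WT 56 and 64. Their part in the Nes values was not tested.

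Krt28 was low in every library and stood apart by label. KO astrocytes 132, 60, 62 and 73 had raw counts of 259, 241, 288 and 123, whereas WT astrocytes 56, 57, 64 and 78 had 23, 28, 16 and 28. This is 5.475, 5.709, 6.824 and 2.302 CPM against 0.4807, 0.8207, 0.356 and 0.6588 CPM. The lowest KO library, KO 73, was above the highest WT library, WT 57. The means were 5.08 ± 1.94 and 0.579 ± 0.204 CPM (SD, n = 4 per label), for a fitted log2 fold change of 3.14 ± 0.40 (95% interval 2.25 to 4.04). Krt28 was chosen on this difference, so the interval does not allow for that choice and is not a test. In flowthrough KO 132 and 60 had 75 and 141 counts, against 8 and 25 for WT 56 and 64, or 1.352 and 2.686 CPM against 0.1448 and 0.4946 CPM. The KO libraries were again above both WT libraries. The log2 fold change of 2.66 ± 0.67 (95% interval 1.19 to 4.13) did not pass in edgeR (adjusted p = 1, unadjusted p = 0.00208), while DESeq2 gave an adjusted p of 0.0439. The flowthrough mice also gave astrocyte libraries on which Krt28 was chosen, so these p-values are not independent of that choice.

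**Figure D1:**
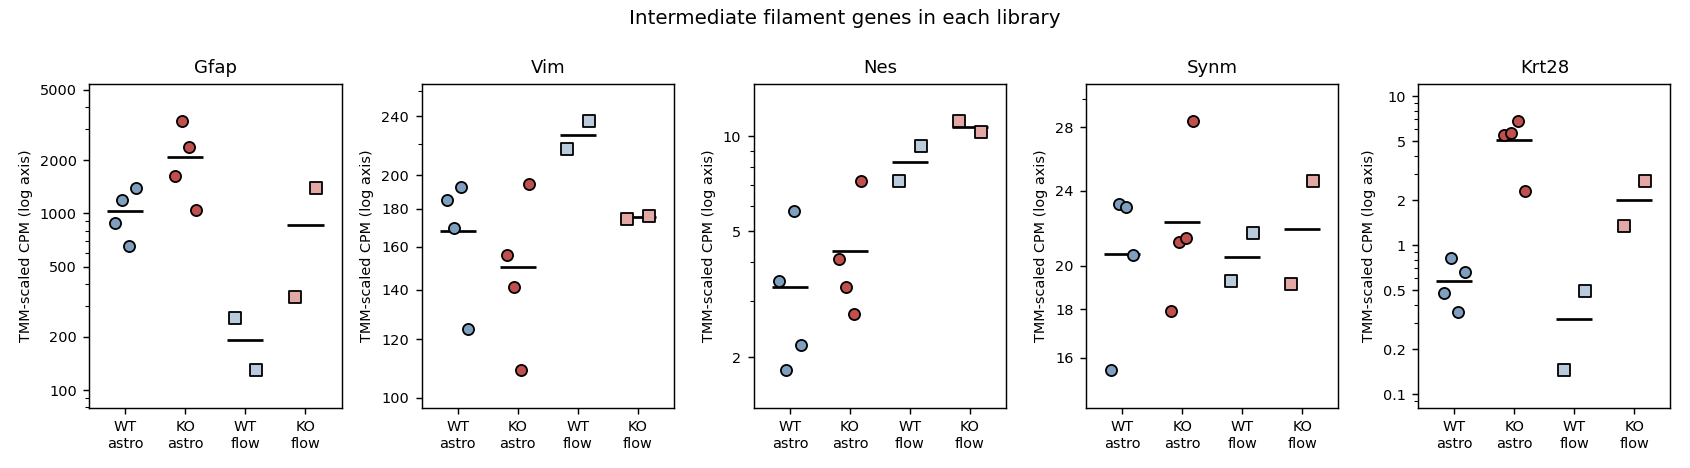
TMM-scaled CPM (log axis, a different range in each panel) of Gfap, Vim, Nes, Synm and Krt28; each point is a library, circles are astrocytes (n = 4 per label), squares flowthrough (n = 2 per label), and bars are group means. Krt28 separates the KO from the WT libraries in both fractions, Gfap overlaps in astrocytes between KO 73 (1041 CPM) and WT 78 (1394 CPM), and Vim, Nes and Synm overlap in astrocytes.

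Between KO and WT astrocytes 0.232% of all 18527 genes tested were called (adjusted p under 0.05 in edgeR); calls among the 5 genes are not counted there, since Krt28 was chosen on that difference. The groups did not overlap for Krt28 alone, against 4.03% of all genes, and nothing is read from this count. Over all genes 27 were higher and 16 lower in KO, or 21 and 7 with library size scaling, and 5.37% had an unadjusted p under 0.05. The Krt28 log2 fold change was 2.97 to 3.39 over the 8 refits that left out a library. In flowthrough none of the 5 genes was called, where 0.00476% of 20997 genes were called. An unadjusted p under 0.05 was reached by 2 of them, Gfap and Krt28, against 4.63% of all genes. For 4 of the 5 genes (all but Synm) the flowthrough groups did not overlap, against 33.6% of all genes tested. The flowthrough mice also gave astrocyte libraries on which Krt28 was chosen, with the Gfap values known, so nothing is read from either count.

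The difference between the KO effect in astrocytes and that in flowthrough was not past the threshold for any of the 5 genes. On the log2 scale it was -1.13 ± 0.80 for Gfap (adjusted p = 0.934), 0.21 ± 0.32 for Vim (0.946), 0.01 ± 0.65 for Nes (1), 0.02 ± 0.31 for Synm (1) and 0.48 ± 0.80 for Krt28 (0.948), all by edgeR with Benjamini-Hochberg adjustment. Over all 20997 genes the interaction gave 0 calls in edgeR, with 828 genes (3.94%) at an unadjusted p under 0.05, and 6 calls in DESeq2. The interval for Gfap ran from -2.88 to 0.62 and that for Krt28 from -1.27 to 2.23, so these libraries do not show that the KO difference is equal in the fractions, nor that it differs. The Gfap estimate became 0.24 without KO 60 in flowthrough, and that of Krt28 -0.63 without WT 64 in flowthrough. The test uses the astrocyte libraries on which Krt28 was chosen and is not independent of that choice.

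Set against astrocyte marker RNA of the same library, Gfap and Krt28 were higher in every KO library than in every WT library of both fractions. This calculation was chosen after the values were seen and is a description. How many of all genes separate on this scale was not computed, so nothing is read from the separation. Mice 132, 60, 56 and 64 gave libraries of both fractions, so the libraries are not independent. Gfap stood at 79.6 to 145.6 CPM per 1000 CPM of the 15 summed markers in KO astrocytes and 69.82 and 148.3 in KO flowthrough. In WT astrocytes it was 34.61 to 56.78, and in WT flowthrough 47.97 and 34.31. KO 73, which overlapped the WT libraries in plain CPM, was at 84.0 on this scale. Its summed markers, 12390 CPM, were the lowest of the astrocyte libraries. Vim, Nes and Synm of KO 73 also exceeded every WT astrocyte library on this scale (15.71, 0.5828 and 2.293 against at most 10.22, 0.3079 and 1.222). In the other KO astrocyte libraries these genes did not. Krt28 stood at 0.1857 to 0.2778 in KO astrocytes and 0.2802 and 0.2876 in KO flowthrough, against 0.01888 to 0.03662 in WT astrocytes and 0.02698 and 0.1312 in WT flowthrough. The WT value nearest to the KO range was that of WT 64 in flowthrough. The markers themselves moved with the label: 13 of 15 were below WT in KO astrocytes (median log2 fold change -0.23) and 14 of 15 above WT in KO flowthrough (median 0.49), against medians of 0.004 and 0.037 over all genes. None of the 15 was called in either comparison, and their part in the Gfap difference was not tested.

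**Figure D2:**
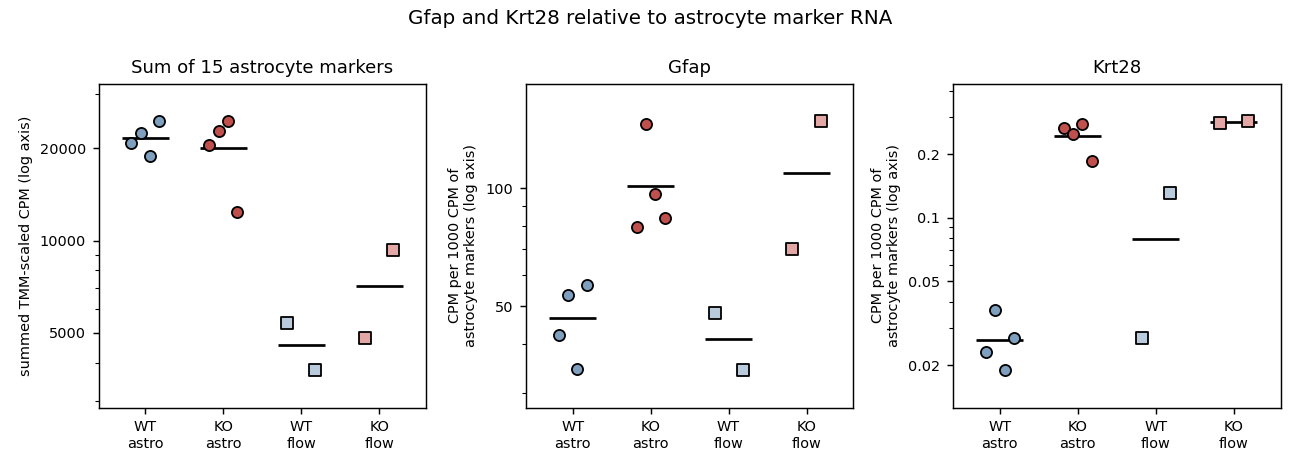
Left, the summed TMM-scaled CPM of 15 astrocyte markers (log axis); middle and right, Gfap and Krt28 in CPM per 1000 CPM of those markers (log axes). Each point is a library and bars are group means. All 6 KO libraries lie above all 6 WT libraries for Gfap (at least 69.82 against at most 56.78) and for Krt28 (at least 0.1857 against at most 0.1312). Mice 132, 60, 56 and 64 each gave a library in both fractions, so these libraries are not independent.

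The fractions were compared next. This contrast was not used to choose the genes, but it includes the astrocyte libraries on which Krt28 was chosen, with the Gfap values known. Gfap and Krt28 were higher in astrocyte than in flowthrough libraries, Nes was lower, and Vim and Synm did not pass the test. The call share over all genes was 49.2%, so a call in this contrast is common, and the share of the 5 genes called, 3 of 5, is read against it. All 3 calls held without KO 73 and WT 78, the libraries with Xist, which have no counterpart in flowthrough. Aldh1l1, the marker whose promoter drives the Cre, had a log2 fold change of 1.65 ± 0.30 (astrocytes minus flowthrough, edgeR adjusted p = 9.5e-04).

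Gfap was 3.421-fold and 5.045-fold higher in the astrocyte than in the flowthrough library of WT mice 56 and 64, and 4.85-fold and 2.404-fold higher in KO mice 132 and 60. All 4 mice showed this direction, with KO 60 the smallest ratio. Over the 12 libraries the log2 fold change was 1.85 ± 0.44 (95% interval 0.89 to 2.8, edgeR adjusted p = 0.00458). The mean was 1563 ± 888 CPM in astrocytes (SD, n = 8) and 527 ± 578 CPM in flowthrough (n = 4), and the groups overlapped through KO 60 in flowthrough (1385 CPM). The call was lost with the covariate for non-astrocyte RNA, where the log2 fold change was 1.0 (adjusted p = 0.388). Of the markers averaged in that covariate, those of microglia and endothelial cells were each called lower in astrocytes in 10 of 10 cases (median log2 fold changes -3.552 and -1.143). Those of neurons were called higher in 10 of 10 cases (1.605), and those of oligodendrocytes were higher in 10 of 10 cases with 5 called (0.992). These markers thus differed between the fractions themselves, so a call lost with this covariate does not show where the RNA came from. The same holds for each fraction call below.

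Nes went the other way in all 4 mice, at 0.3656 and 0.3253 of the flowthrough level in astrocytes of KO 132 and 60 and 0.4845 and 0.6219 in WT 56 and 64. Its log2 fold change was -1.30 ± 0.32 (95% interval -2.0 to -0.61, edgeR adjusted p = 0.00542), from 9.49 ± 1.70 CPM in flowthrough (SD, n = 4) to 3.84 ± 1.84 CPM in astrocytes (n = 8). With the covariate for non-astrocyte RNA it was -0.45 (adjusted p = 0.459). Endothelial markers, of a cell type known to express nestin, were called lower in astrocytes in 10 of 10 cases (median log2 fold change -1.14), and their part in the Nes difference was not tested.

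Vim was slightly below its flowthrough level in the astrocyte library of each of the 4 mice, at ratios of 0.8936, 0.8003, 0.8549 and 0.8142 in mice 132, 60, 56 and 64. The log2 fold change of -0.33 ± 0.16 missed the threshold in edgeR (adjusted p = 0.104). With the mouse as a block, over the 8 libraries of these 4 mice, it was -0.26 and passed (adjusted p = 0.0467), and it also passed without KO 73 (-0.40, adjusted p = 0.0283). Synm had ratios of 0.9353, 0.8622, 0.8053 and 1.065 in the same order of mice. Its log2 fold change was 0.02 ± 0.15 (95% interval -0.32 to 0.35, edgeR adjusted p = 0.94), which limits a difference between the fractions to less than that seen for Gfap or Nes.

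Krt28 was higher in the astrocyte library in 3 of the 4 mice, by 4.05-fold in KO 132, 2.126-fold in KO 60 and 3.32-fold in WT 56. In WT 64 the ratio was 0.7198, from 16 counts in astrocytes and 25 in flowthrough. The log2 fold change of 1.09 ± 0.41 (95% interval 0.20 to 1.98) passed narrowly in edgeR (adjusted p = 0.0438). It was lost without any single one of KO astrocytes 132, 60 or 62, WT astrocytes 56, 57 or 78, KO 132 in flowthrough or WT 56 in flowthrough, with estimates between 0.77 and 1.11 in these refits. With the covariate for non-astrocyte RNA it was -0.05 (adjusted p = 0.965).

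**Figure D3:**
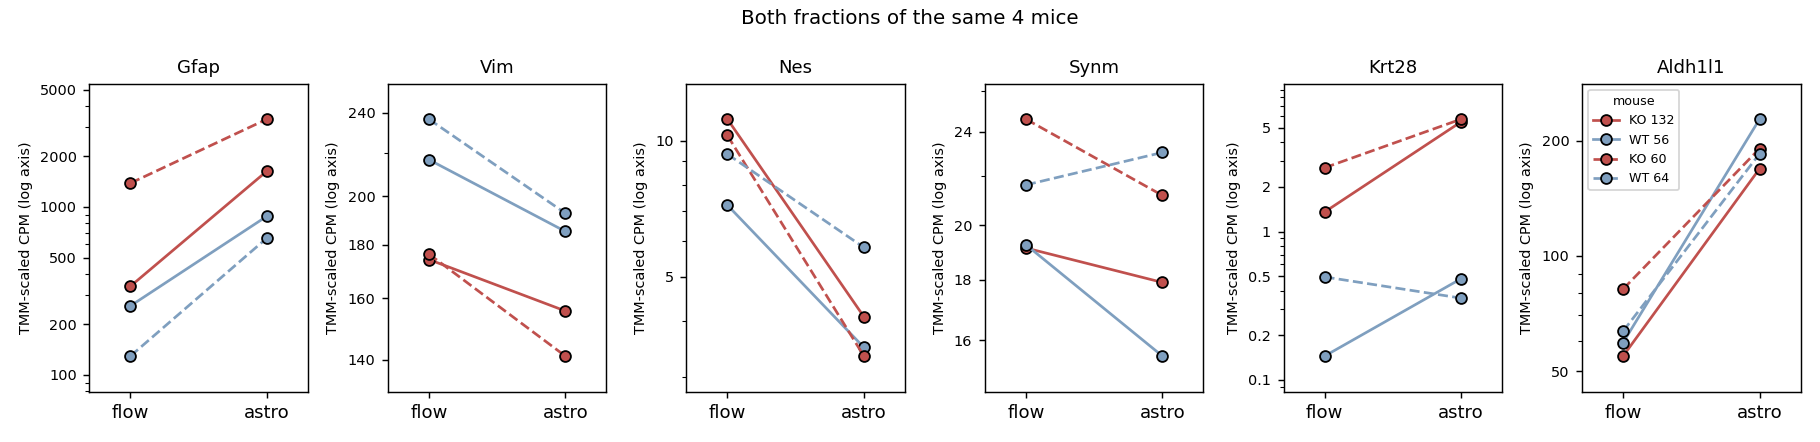
TMM-scaled CPM (log axis) of the 5 filament genes and of the astrocyte marker Aldh1l1 in the flowthrough and astrocyte library of the same 4 mice; each line is a mouse, red for KO and blue for WT. Gfap and Aldh1l1 are higher and Nes and Vim lower in the astrocyte library of every mouse, and Krt28 falls only in WT 64 (ratio 0.7198).

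**Figure D4:**
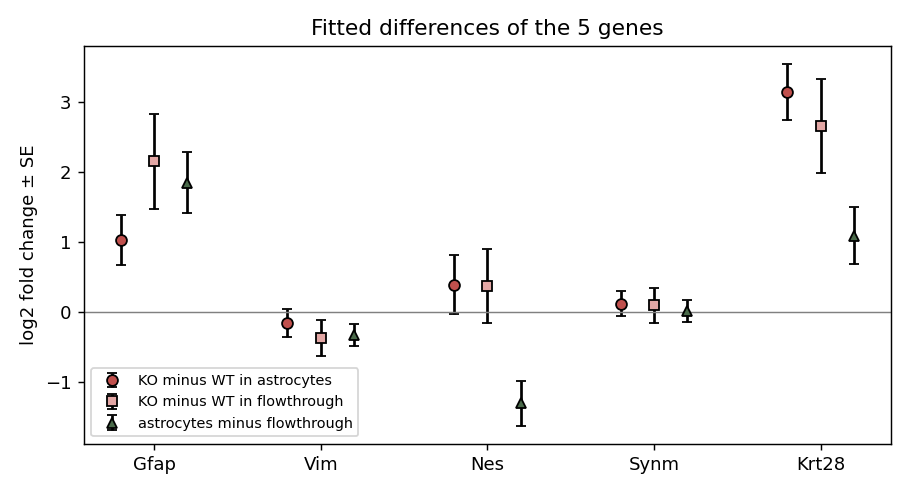
Fitted log2 fold changes with standard errors of the 5 genes in the 3 comparisons: KO minus WT in astrocytes (8 libraries), KO minus WT in flowthrough and astrocytes minus flowthrough (12 libraries). Krt28 and Gfap are above 0 in all 3 (Krt28 3.14, 2.66 and 1.09; Gfap 1.03, 2.15 and 1.85), and Nes is below 0 in the comparison of fractions (-1.30).

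The other filament genes of the nervous system gave no call between the labels. Of the 11 neural intermediate filament genes, 3 were higher and 8 lower in KO astrocytes (median log2 fold change -0.14, against 0.004 over all genes), and the 3 were Gfap, Nes and Synm. In flowthrough 8 of 11 were higher (median 0.31, against 0.037), again with 0 called. Among them, Nefl, the light neurofilament subunit of neurons, was 341 ± 78 CPM in KO and 377 ± 96 CPM in WT astrocytes (SD, n = 4 each). Ina, the neuronal subunit alpha-internexin, was 44.35 ± 11.99 and 52.91 ± 15.01 CPM. Sync, which encodes syncoilin, was 0.206 ± 0.095 and 0.304 ± 0.086 CPM. In KO and WT flowthrough Nefl was 134 ± 84 and 67.1 ± 14 CPM and Ina 20.0 ± 11 and 11.2 ± 4.0 CPM (SD, n = 2 each). The KO flowthrough means were above the WT means, with overlapping groups. The 10 neuron markers, Nefl among them, all lay above WT in KO flowthrough too (median 0.922), with sums of 595.4 to 1299 CPM in KO and 459.1 to 591.3 CPM in WT, and their part in these values was not tested.

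Neuronal filament RNA was more abundant in the astrocyte than in the flowthrough libraries. Of the 11 genes, 6 were called higher and 1 (Nes) lower in astrocytes, where 24.8% and 24.4% of all genes were, with a median log2 fold change of 1.05 against 0.004 over all genes. Nefl went from 101 ± 62 CPM in flowthrough (SD, n = 4) to 359 ± 83 CPM in astrocytes (n = 8), a log2 fold change of 1.92 ± 0.28 (edgeR adjusted p = 2.6e-04). Ina (1.70 ± 0.29) and Nefh, the heavy neurofilament subunit (1.23 ± 0.24), were called in the same direction. The 10 neuron markers, Nefl among them, were also all called higher in astrocytes (median 1.605), with summed levels of 1374 to 3133 CPM in astrocytes and 459.1 to 1299 CPM in flowthrough. Their part in the neurofilament values was not tested. With the covariate for non-astrocyte RNA, into which neuron markers enter, Nefl was still called, while Ina (1.26, adjusted p = 0.101) and Nefh (0.84, adjusted p = 0.168) were not.

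Among the keratins other than Krt28, none was called between KO and WT astrocytes. Krt28 was chosen for its difference there, so no call is counted for it. Of 54 listed keratin genes 21 had enough counts to be tested, of which 16, Krt28 among them, were higher and 5 lower in KO, with a median log2 fold change of 0.27 against 0.004 over all genes. Krt27, the direct neighbour of Krt28, and Krt26 beyond it are, like Krt28, type I keratins of the inner root sheath. Both had few reads. Krt27 had 9 to 32 counts in KO and 3 to 20 in WT astrocytes (log2 fold change 1.22 ± 0.59), and Krt26 was 0.717 ± 0.377 and 0.453 ± 0.228 CPM (SD, n = 4 each). Krt10, the direct neighbour of Krt28 on the other side, is known from the upper epidermis. It was 13.6 to 18.55 CPM in KO and 11.37 to 13.55 CPM in WT astrocytes, groups that did not overlap. Its log2 fold change of 0.32 ± 0.15 missed the threshold (edgeR adjusted p = 0.931). The fourth neighbour, Gm11940, had at most 6 counts.

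The type II partners of the inner root sheath were low or absent. Krt71 was at most 0.0836 CPM in any library and Krt74 at most 0.0474 CPM. Krt73 was 0.1268 to 0.6633 CPM in KO and 0.2003 to 0.2931 CPM in WT astrocytes. In flowthrough it was 0.1442 and 0.5715 CPM in KO 132 and 60 (8 and 30 counts) against 0 and 0.0396 CPM in WT 56 and 64 (0 and 2 counts). The WT values lie under the 3-count floor of 0.0582 to 0.0775 CPM and the KO values above it, and the difference did not pass. Krt72 was 2.58 ± 1.06 CPM in KO and 2.18 ± 1.09 CPM in WT astrocytes (SD, n = 4 each). Krt5 and Krt14, which define the basal epidermis, were at most 0.0748 and 0.2003 CPM. Of 12 skin and hair follicle markers in the files, up to 4 were at 0 in a library, and their summed level was 25.73 to 28.43 CPM in KO astrocytes against 18.96 to 29.35 CPM in WT astrocytes.

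Between the fractions, keratins were called in both directions. Of 26 tested, Krt28 among them, 9 were called higher and 6 lower in astrocytes, where 24.8% and 24.4% of all genes were and 49.2% in either direction (median log2 fold change 0.84, against 0.004). Krt8 and Krt18, the keratin pair of simple epithelia, were both lower in astrocytes; Krt18 is named after its values were seen. Krt8 had 0.1693 to 0.3056 and Krt18 0.1123 to 0.2167 of their flowthrough level in the astrocyte libraries of the 4 mice, with log2 fold changes of -2.40 ± 0.40 and -2.56 ± 0.45 (edgeR adjusted p = 6.3e-04 and 8.2e-04). The 9 choroid plexus epithelium markers were also all called lower in astrocytes (median -2.37), and their part in the Krt8 and Krt18 values was not tested. Both calls were lost with the covariate for non-astrocyte RNA (-1.62 and -1.51, adjusted p = 0.0978 and 0.105). That covariate holds no choroid plexus markers, so the loss does not show the part of choroid plexus RNA. Krt83 (-5.11 ± 0.77) and Krt80 (-2.63 ± 0.42) were lower too. Krt10 (0.86 ± 0.18) and Krt12, known from the cornea (1.82 ± 0.46), were called higher in astrocytes, as Krt28 was, and also lost their calls with that covariate (0.93 and 1.26, adjusted p = 0.0653 and 0.295).

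**Figure D5:**
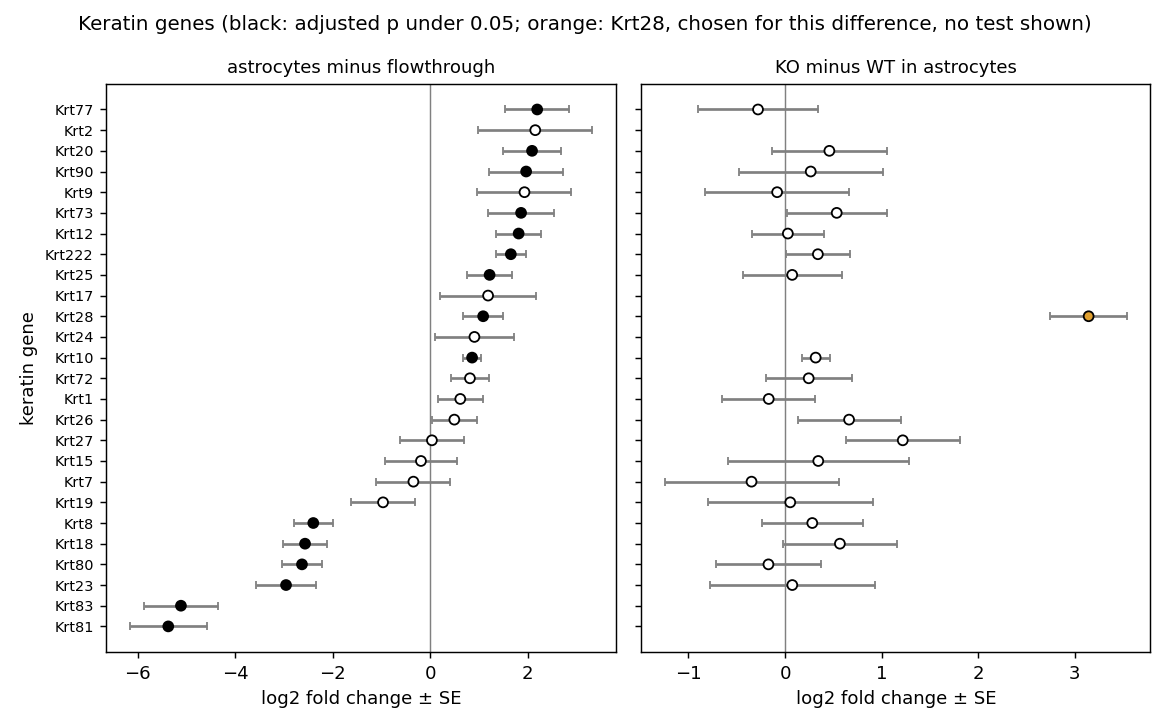
Log2 fold changes with standard errors of the keratin genes that could be tested, astrocytes minus flowthrough (left, 26 genes) and KO minus WT in astrocytes (right, 21 genes); black points have an edgeR adjusted p under 0.05, open points do not, and Krt28, chosen for its difference on the right, is drawn in orange there with no test. On the right Krt28 lies at 3.14 and the other points are open, while on the left 15 points are black, from Krt81 and Krt83 below -5 to Krt77 and Krt20 above 2.

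Lamins, plakins and filament chaperones gave no call between the labels in either fraction. Among the 3 lamins, which line the nucleus, Lmnb2 was 3.01 ± 0.31 CPM in KO and 4.16 ± 1.03 CPM in WT astrocytes (SD, n = 4 each; log2 fold change -0.45 ± 0.23). Lmnb1 was called lower in astrocytes than in flowthrough (-2.92 ± 0.47, edgeR adjusted p = 4.4e-04), a call lost with the covariate for non-astrocyte RNA (-2.05, adjusted p = 0.0583). Of 6 plakins, the linkers of filaments to junctions and other cytoskeleton, 5 were lower in KO astrocytes (median -0.10, against 0.004 over all genes), led by Ppl, periplakin, at 0.642 ± 0.449 against 1.26 ± 0.96 CPM. In KO flowthrough 4 of 6 were higher (median 0.18, against 0.037). There Macf1, which links microtubules and actin, was 88.8 ± 6.7 CPM in KO and 66.1 ± 0.92 CPM in WT (0.43 ± 0.17), and Dst, dystonin, 66.7 ± 9.9 and 52.2 ± 7.4 CPM (0.35 ± 0.16; SD, n = 2 each). Their unadjusted p-values in edgeR were 0.0304 and 0.0478, with an adjusted p of 1 for both; 4.63% of all genes had an unadjusted p under 0.05. Between the fractions, Evpl (1.76 ± 0.32) and Dst (0.29 ± 0.10) were called higher and Dsp (-1.34 ± 0.52) lower in astrocytes. The Dst call was lost without KO 132 (0.22) or WT 64 (0.21) in flowthrough or WT 56 (0.27) or WT 57 (0.28) in astrocytes, and the Dsp call in 8 of 12 refits that left out a library (-1.55 to -1.15 over the 12). Dst was also not called with library size scaling (0.15), without a filter on low counts (0.29), with the covariate for non-astrocyte RNA (0.39) or with the mouse as a block (0.30). Dsp was not called with library size scaling (-1.45) or that covariate (-0.45, adjusted p = 0.761), nor Evpl with that covariate (0.94, adjusted p = 0.18).

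Of the 12 genes for chaperones and turnover of filaments, 9 were higher in KO astrocytes (median 0.11, against 0.004 over all genes) and 5 in KO flowthrough (median -0.18, against 0.037). Bag3, a co-chaperone of selective autophagy, was 23.9 ± 1.8 CPM in KO and 16.3 ± 2.5 CPM in WT astrocytes, groups that did not overlap, with a log2 fold change of 0.56 ± 0.14 (edgeR adjusted p = 0.348). Stub1, a ubiquitin ligase that works with chaperones, went the other way, at 25.4 ± 4.4 CPM in KO (19.43 to 29.85) and 30.7 ± 0.39 CPM in WT astrocytes (30.16 to 30.99), again without overlap (-0.27 ± 0.14, edgeR adjusted p = 0.972). Groups without overlap were found for 4.03% of all genes. Cryab, the small heat shock protein that binds Gfap and is found in its aggregates, was 556 ± 86 and 467 ± 47 CPM (0.26 ± 0.14, adjusted p = 0.972 in edgeR). Cryab was called higher in astrocytes than in flowthrough (0.70 ± 0.14), while the proteases Casp6 (-1.25 ± 0.18) and Capn1 (-1.25 ± 0.20) were called lower.

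The known regulators of the Gfap gene, as a list, showed no common direction with the label. The list was not split into activators and inhibitors, so nothing about the regulation of Gfap is read from its counts. Of 22 genes of the JAK-STAT, Notch, BMP, AP-1 and nuclear factor I pathways, 11 were higher and 11 lower in KO astrocytes (median log2 fold change 0.01), and 14 were higher in KO flowthrough (median 0.25, against 0.037 over all genes), with 0 called in both. Il6st, the shared receptor chain gp130, was 55.3 ± 1.8 CPM in KO and 43.3 ± 7.9 CPM in WT astrocytes. Cntfr, the receptor chain for ciliary neurotrophic factor, was 4.62 ± 1.47 and 7.21 ± 0.92 CPM, and Hes1, a target of Notch, 12.7 ± 2.5 and 19.2 ± 4.9 CPM (SD, n = 4 each). These are the 3 of the 22 with the smallest p, and the groups did not overlap for any of them, as for 4.03% of all genes. Their unadjusted p-values were 0.0329, 0.0385 and 0.0233, where 5.37% of all genes were under 0.05, and their edgeR adjusted p-values 0.843, 0.881 and 0.771. Between the fractions 7 of 22 were called higher in astrocytes, among them Nfia (0.81 ± 0.11) and Cntfr (1.99 ± 0.30), and 8 lower, among them Fos (-2.27 ± 0.34), where 24.8% and 24.4% of all genes were. The Cntfr and Fos calls were lost with the covariate for non-astrocyte RNA (1.51 and -1.33, adjusted p = 0.0575 and 0.0642).

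Of 13 genes known to be raised in reactive astrocytes whatever the insult, Gfap and Vim among them, 7 were higher and 6 lower in KO astrocytes (median 0.09) and 5 higher and 8 lower in KO flowthrough (median -0.24), with 0 called. Serpina3n, a serine protease inhibitor, was 30.7 ± 8.2 CPM in KO and 24.6 ± 6.4 CPM in WT astrocytes, S1pr3, a sphingosine-1-phosphate receptor, 26.6 ± 10.2 and 19.2 ± 6.7 CPM, and Cd44, a hyaluronan receptor, 8.98 ± 2.00 and 7.81 ± 0.73 CPM (SD, n = 4 each). Lcn2, a secreted iron-siderophore carrier, was 9.57 ± 5.77 and 38.6 ± 61.7 CPM, a log2 fold change of -2.01 ± 1.15 that became 0.26 without WT 64. Between the fractions Lcn2 (-4.15 ± 0.90) and Cd44 (-2.23 ± 0.19) were called lower in astrocytes and Serpina3n (1.01 ± 0.20) higher, as Gfap was; the Lcn2 call was lost with the covariate for non-astrocyte RNA (-2.23, adjusted p = 0.291).

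The genes whose pattern was most like each of the 5 over the 8 astrocyte libraries were found by Pearson's r of log2 CPM. These values describe the libraries, which share label and cell composition, and no p is given. For Gfap they were Vps26c (r = 0.975), Lap3 (0.968) and Kcne1l (0.967), and for Vim Pdgfd (0.961), Ace (0.951) and Spint2 (0.948). For Nes they were Srgn (0.974), Myl12a (0.973) and Isyna1 (0.973), and for Synm Zmym5 (0.932), Rc3h1 (0.927) and Cebpg (0.922). For Krt28, which separates the labels, they were Dpy19l3 (0.985), Cep19 (0.975) and Cmpk2 (0.974). Of the neighbours of Gfap on the chromosome, Ccdc103 was 6.041 to 16.32 CPM in KO and 3.812 to 10.12 CPM in WT astrocytes, C1ql1 was 0.1123 to 0.8528 and 0.5785 to 1.176 CPM, and Fam187a and Kif18b had at most 9 and 4 counts in the astrocyte libraries.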

How the data were processed

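RNA sequencing was analysed in 12 libraries. Per the file headers, each file lists for every gene its exon intervals, their summed length, a raw count, a CPM and an RPKM. The deposited counts, all whole, were the values tested. The deposited CPM was found to equal count over library total (to 5.1e-11), and the deposited RPKM that CPM per kilobase (to 9.1e-11); both served only as checks. The submitters' processing notes name STAR 2.5.1a, featureCounts 1.4.6-p5, Subread, bcl2fastq and the GRCm38 build. What each tool did, the strand setting and the handling of multiply mapped reads are not given. No molecular identifiers are named, so the floor of 3 counts covers counting error only. Symbols were found for 40254 of 41388 genes.

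The test was the quasi-likelihood test of edgeR 4.0.16 under R 4.3.3 (glmQLFit, glmQLFTest, two-sided, TMM, filterByExpr, Benjamini-Hochberg over all genes, called at an adjusted p under 0.05). KO and WT astrocytes were compared within the 8 astrocyte libraries, on 18527 genes with 6 residual degrees of freedom. All other comparisons pooled the spread of 12 libraries in 4 groups, on 20997 genes with 8. Printed CPM values are TMM-scaled over the 12 libraries.

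The 5 genes, the 22 gene lists (247 of 249 listed genes in the files) and the tests were chosen with earlier results of these data known. Named genes are the 5, up to 3 of each filament list with the smallest p in each comparison, the 3 most like each of the 5 (mean log2 CPM of at least 3, prior count 2), and the 2 neighbours on either side of Gfap and Krt28. The alternatives changed the scaling (RLE, library size), the filter (none, or CPM of at least 1), the tool (DESeq2 1.42.0; limma-voom of limma 3.58.1) or the libraries (each left out, KO 73 with WT 78, 1 fraction or all), or added a covariate for non-astrocyte RNA (averaged log2 CPM of neuron, endothelial, oligodendrocyte and microglia markers) or the mouse as a block. A covariate for astrocyte RNA was added after seeing the data. The analysis code was tested on simulated data. Mouse numbers pair the fractions of 4 animals; the correlation of paired deviations was -0.0066, 0.155, 0.352 and 0.251 for mice 132, 56, 60 and 64.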

Additional observations from a re-analysis of the deposited data

Results flagged for a closer look

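Within groups of 4 astrocyte libraries, 8 of 74 groups tested (37 genes) held a library far from the other 3, where chance flags about 1 in 20. Of these, 4 were in KO 73, the library with the lowest summed astrocyte markers: Lmnb1 was 1.366 CPM there against 0.1659 to 0.3317 CPM in the other KO astrocyte libraries, Casp6 26.42 against 16.84 to 18.46, Cryab 683.9 against 501.4 to 525.3, and Cntfr 2.432 against 5.117 to 5.475 CPM. The part of cell composition in these was not tested. Lcn2 was 130.5 CPM in WT 64 against 2.518 to 18.7 CPM in the other WT astrocyte libraries, and Krt73 was 0.2003 CPM there against 0.2824 to 0.2931 CPM. Krt27 was 0.2132 CPM in KO 60 against 0.5707 to 0.616 CPM, and Dst 63.59 CPM in KO 62 against 70.46 to 71.8 CPM. None of Gfap, Vim, Nes, Synm and Krt28 had such a library.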

How the results depend on the processing

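Depth did not limit the tests of Gfap and Vim, while Krt28 in WT rests on 8 to 28 counts per library, and flowthrough on 2 mice per label. Under other settings 540 values kept their direction and side of the threshold, 24 turned their direction, 22 lost their call, 5 gained one and 9 counts moved by over 1.5 times; with a library left out these were 641, 21, 27, 1 and 10. Calls between KO and WT astrocytes (43) became 28 with library size scaling, 160 with DESeq2, 169 with the covariate for non-astrocyte RNA and 73 with that for astrocyte RNA, and 12 to 37 with a library left out. In flowthrough (1 call) they became 23 with DESeq2, 0 with limma-voom or the 4 flowthrough libraries alone, and 0 to 5; for the interaction, 6 with DESeq2; between the fractions (10333), 3101 with the non-astrocyte covariate. With that covariate, KO minus WT in astrocytes was 1.64 for Gfap, -0.23 for Nes, -0.03 for Synm, 0.15 for Ina and -0.11 for S1pr3, in flowthrough -0.41 for Nes and -0.11 for Synm, the interaction -0.03 for Krt28, and between the fractions 1.0 for Gfap and -0.45 for Nes (both lost), 0.06 for Vim and -0.05 for Krt28. With the astrocyte covariate the astrocyte values were 1.53 for Gfap, -0.19 for Nes, -0.06 for Synm and 0.03 for Ina. Without KO 73 and WT 78 they were -0.13 for Nes, -0.02 for Synm and 0.03 for Ina, the interaction -0.06 for Vim, -0.51 for Nes and -0.13 for Synm, and the fraction difference -0.34 for Vim (now past the threshold) and -0.05 for Synm. With limma-voom Krt28 was 3.07 in astrocytes; between the fractions it missed with limma-voom (1.14) and library size scaling (0.91), and in flowthrough it passed with DESeq2 (2.66). Synm between the fractions was -0.13 with library size scaling, which moved the median of all genes from 0.004 to -0.143 and the calls from 5204 higher and 5129 lower to 4239 and 5660, and -0.01 with a CPM of at least 1. With the mouse as a block, in the 4 paired mice, the fraction difference was -0.26 for Vim (now past the threshold) and -0.14 for Synm, and the interaction -0.69 for Nes and -0.06 for Synm; the block changed no other call of the 5 genes. With each library left out, ranges were, in astrocytes, 2.97 to 3.39 for Krt28, -0.02 to 0.21 for Synm and -2.40 to 0.26 for Lcn2; in flowthrough, -0.09 to 0.27 for Synm, -0.06 to 2.33 for Krt12 and -0.98 to 0.03 for Cd44; for the interaction, -1.82 to 0.24 for Gfap, -0.35 to 0.42 for Nes, -0.15 to 0.22 for Synm and -0.63 to 1.11 for Krt28; and between the fractions, 0.77 to 1.63 for Krt28, -0.40 to -0.26 for Vim and -0.07 to 0.10 for Synm. The cause of these shifts was not tested.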
